A study of Mus musculus with 6 samples.

Results

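Guanylate-binding proteins (GBPs) and immunity-related GTPases (IRGs) are 2 families of interferon-induced GTPases, and 8 of their genes are described here in sorted neuronal nuclei of the mouse medial prefrontal cortex (mPFC): Gbp2, Gbp3, Gbp7, Irgm1, Irgm2, Igtp, Iigp1 and Ifi47. They were taken by symbol from the 24421 rows of the count table, all 8 were present, and they were chosen by symbol after their CFA and saline levels in these same libraries had been seen. Their values in that comparison are therefore a description without a test. The nuclei came from Foxp2-Cre mice given bilateral mPFC injections of an adeno-associated virus expressing KASH-GFP, a fluorescent protein held at the nuclear envelope, and were collected 4 weeks later. One group of 3 libraries came from mice given CFA (complete Freund's adjuvant, used to model lasting inflammatory pain) and the other from 3 saline controls, so the virus and the Cre allele were common to both groups. Each library was made from 10000 nuclei labelled as Foxp2-positive neurons. Age, sex, strain background, the site of CFA injection and its timing relative to collection are not given in the labels, nor is whether each library was 1 animal.

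Both families are switched on by interferons. Interferon gamma acts through its receptor and Janus kinases on promoter elements called gamma-activated sites (GAS). Type I interferons act, with the DNA-binding factor IRF9, on interferon-stimulated response elements (ISRE), and IRF1 binds similar letters. In infected cells GBPs coat bacteria and parasite vacuoles and promote their rupture and inflammasome activation. Among IRGs, the IRGM proteins (Irgm1, Irgm2 and Igtp, also called Irgm3) sit on the cell's own membranes and hold the effector IRGs, such as Iigp1 (Irga6) and Ifi47 (Irgd), inactive there. Effector IRGs load onto vacuoles that lack IRGM proteins. In the brain the families are best known from infection and neuroinflammation, in glia and in neurons exposed to interferon gamma.

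The promoters of these genes are shown first, because interferon factors act through ISRE and GAS letters there. The letters themselves were not used to pick the genes. The genes were picked from interferon-induced families, however, so matches are not independent of that choice. Promoters were searched for 7 of the 8 genes, from RefSeq start sites (GRCm38.p6, the same assembly as mm10). Iigp1 was not among those searched, so nothing is said here about its promoter. In the 250 bases before the start site, the ISRE core GAAANNGAAA (TTTCNNTTTC on the other strand) was present in 6 of the 7. It was present in 3.46% of all 27025 genes in the promoter table. The GAS core TTCNNNGAA, which reads the same on both strands, was present in 3 of the 7, against 8.13% of all genes, and both cores together were in those 3 genes, against 0.400% of all genes. In Ifi47 neither set of letters was in the window. A match is a description of sequence and not evidence of binding. The matched stretches follow, 5′ to 3′ on the strand of the gene, with the ISRE and GAS cores in capitals and 10 bases on either side.
Gbp2: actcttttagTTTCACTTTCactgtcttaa
Gbp3: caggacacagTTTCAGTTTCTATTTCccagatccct
Gbp7: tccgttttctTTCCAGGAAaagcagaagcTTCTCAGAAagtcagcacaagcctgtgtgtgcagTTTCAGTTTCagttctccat
Irgm1: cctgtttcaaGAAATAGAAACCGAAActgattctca
Irgm2: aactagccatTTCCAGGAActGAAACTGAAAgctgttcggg
Igtp: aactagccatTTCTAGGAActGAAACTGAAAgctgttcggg

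These stretches lie at chr3:142620594-142620623 for Gbp2, chr3:142559989-142560024 for Gbp3 and chr3:142530220-142530302 for Gbp7, all on the plus strand. They lie at chr11:48871425-48871460 on the minus strand for Irgm1, and on the plus strand at chr11:58214892-58214932 for Irgm2 and chr11:58199501-58199541 for Igtp. In Gbp3 and Irgm1 a pair of ISRE cores overlapped and formed a run of 3 repeats of the half-core. The 41-base stretches of Igtp and Irgm2 differed at 1 base, T14C (Igtp base first, position counted from the 5′ end of the stretch), which lies in the unconstrained middle of the GAS core. The ISRE cores began 24 to 64 bases before the start site. Gbp3 has another annotated start site further downstream, and in its window neither core was present.

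**Figure D1:**
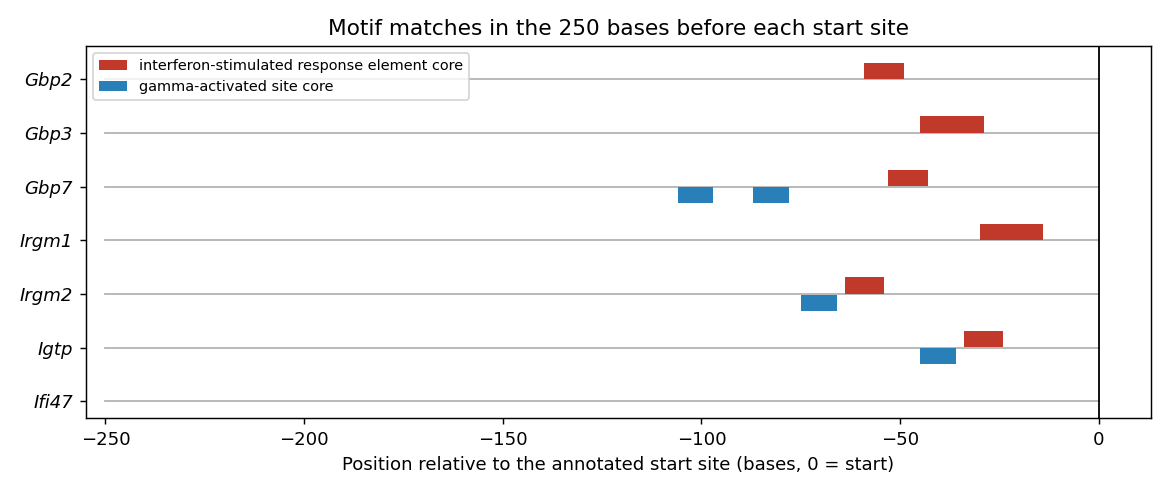
Positions of ISRE core matches (red) and GAS core matches (blue) in the 250 bases before the annotated start site of 7 GTPase genes; the horizontal axis is distance from the start site in bases. The ISRE cores of 6 genes lie within 64 bases of the start, and Ifi47 has no match.

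The genes lie in clusters (mm10). Gbp7 (chromosome 3, 142530336 to 142550151), Gbp3 (142560052 to 142573212) and Gbp2 (142620663 to 142638008) are neighbours on the plus strand, with 9.9 kb between Gbp7 and Gbp3. On chromosome 11, Igtp (58199556 to 58207592) and Irgm2 (58214977 to 58222783) are 7.4 kb apart, and Irgm1 (48865249 to 48871346) and Ifi47 (49076587 to 49096987) form another pair 205.2 kb apart. Iigp1 is on chromosome 18. All 8 are annotated as protein-coding in GENCODE M21. Exons of Ifi47 overlap those of Olfr56 on the same strand and exons of Gbp2 overlap Mir6381 on the opposite strand, and these reads could not be told apart. Over the longest GENCODE transcript, 126 of the 2633 stretches of 50 bases in Gbp3 were also in Gbp7. In Gbp2, 51 of 2467 were also in Gbp2b. Among the IRGs, 98 of 3072 in Iigp1 were in other genes, mostly Gm4951 (87), and 37 of 3479 in Irgm2. Values of these genes are uncertain to that extent. With annotated genes at the same place also counted, the shared part was 12.8% in Gbp7, 12.3% in Igtp and 7.36% in Irgm2.

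The libraries held 9673038 to 11850741 counts. Levels are given in CPM (library-scaled counts, with TMM factors). Where a gene had 0 counts, up to 3 would still be compatible with counting error, which is 0.250 to 0.304 CPM per library. Foxp2 and Slc17a7, the glutamate transporter of cortical excitatory neurons, had counts in every library. There was no library of unsorted nuclei to compare with, so these levels cannot check the label of the sort. Slc17a7 averaged 2279 ± 357 CPM in CFA libraries and 2144 ± 177 CPM in saline libraries, and Foxp2 averaged 29.2 ± 5.50 and 33.8 ± 8.61 CPM (SD, n = 3 each). Over the whole table, the quasi-likelihood test of edgeR called 0 of 13560 genes between CFA and saline libraries at a Benjamini-Hochberg adjusted p under 0.05 (0% of those tested). At the same adjusted threshold DESeq2 called 5 and limma-voom 0. At an unadjusted p under 0.05 edgeR found 437 (3.22%). In bulk libraries fewer cells of a type and less RNA per cell cannot be told apart.

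The 8 GTPases spanned a wide range of low levels. Divided by exon length and scaled to library depth (TPM), Irgm1 was the most abundant, at 14.0 ± 7.08 TPM over the 6 libraries, and Igtp followed at 11.0 ± 6.65 TPM (SD, n = 6), beside 11.6 ± 3.27 TPM for Foxp2. These neighbours overlapped, though Irgm1 was above Igtp in 5 of 6 libraries. Gbp7 was next at 2.70 ± 2.57 TPM, below Igtp in 6 of 6 libraries, and Gbp3 was at 2.48 ± 4.25 TPM, below Gbp7 in 4 of 6. Irgm2 was at 0.900 ± 1.36 TPM, Iigp1 at 0.629 ± 0.789, Ifi47 at 0.350 ± 0.627 and Gbp2 at 0.349 ± 0.633 TPM, and these last 4 did not differ beyond their spread. Only Irgm1, Igtp and Gbp7 had counts in all 6 libraries. The filter on low counts kept 4 genes (Irgm1, Igtp, Gbp7 and Gbp3), and the other 4 were not tested.

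CFA libraries had the higher mean CPM for 7 of the 8 genes, and 49.7% of the 18084 genes with any count were higher in CFA. The groups did not overlap for 2 of the 8, Gbp7 and Irgm2, with CFA higher in both, as for 3.48% of the genes with any count. For these genes 1 library stood out within its group. CFA replicate 3 had the highest CPM of all 6 libraries for 7 of the 8 genes, where it was the highest for 12.7% of the genes with any count. Since the 8 genes were picked with these values known, nothing is read from these counts. Summed over the 8 genes, the level was 30.2, 25.3 and 80.9 CPM in CFA replicates 1, 2 and 3 and 30.2, 16.3 and 11.96 CPM in saline replicates 1, 2 and 3. CFA replicate 1 and saline replicate 1 were thus level, and the group ranges overlapped.

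**Figure D2:**
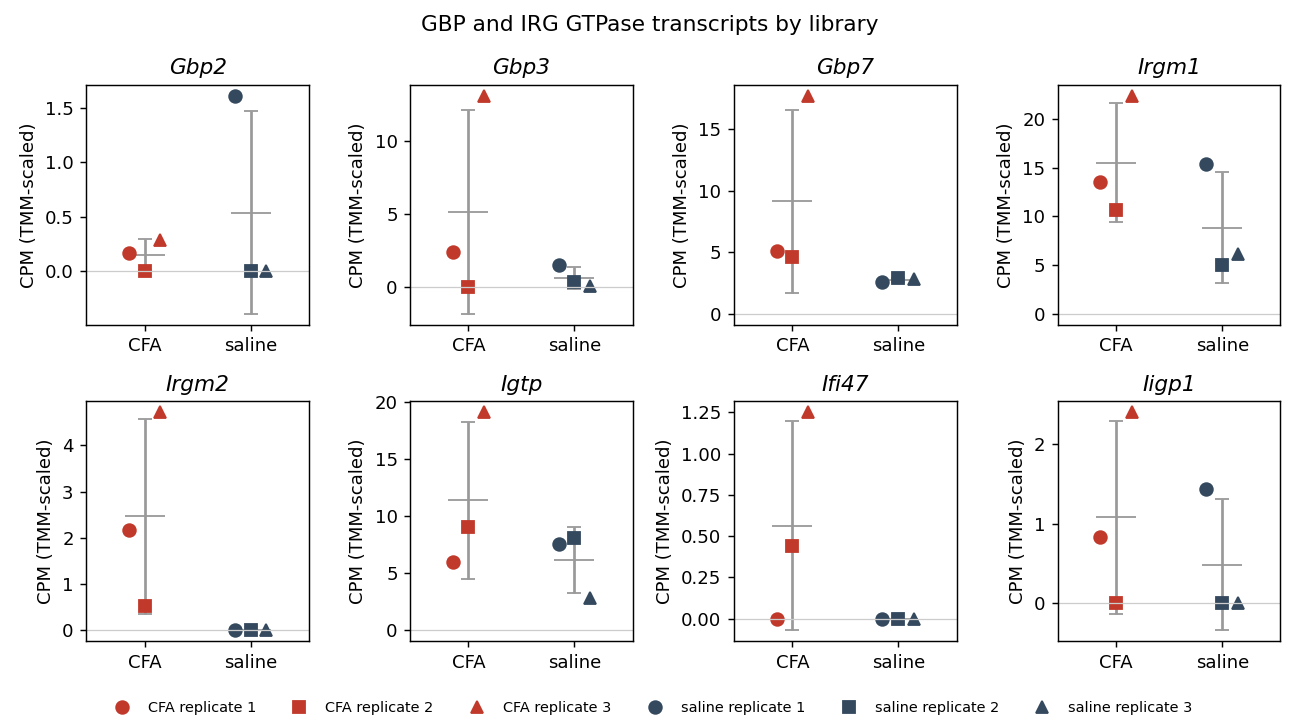
CPM of each GTPase in every library, with CFA libraries (red) left of saline libraries (blue); marker shapes give the replicate, and grey bars the mean ± SD of 3 libraries. CFA replicate 3 (triangle) is the highest point in 7 of the 8 panels, and Gbp2 is highest in saline replicate 1.

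Among the GBPs, Gbp7, a vacuole-targeting GTPase, had the clearest separation. It was at 5.07, 4.59 and 17.7 CPM in CFA libraries and 2.59, 2.87 and 2.84 CPM in saline libraries. The saline libraries were close together, with an SD of 0.152 CPM, all CFA libraries were above them, and CFA replicate 3 was 3.66 times the mean of the other two. The log2 fold change was 1.71 ± 0.55 (SE), and 0.80 without CFA replicate 3. Gbp3, whose human counterpart takes part in the GBP coat on cytosolic bacteria, had 29, 0 and 136 counts in CFA libraries and 17, 4 and 1 counts in saline libraries. That is 2.41, 0 and 13.1 CPM against 1.52, 0.371 and 0.101 CPM, so the CFA libraries held both the lowest and the highest value. Its log2 fold change was 2.91 ± 1.26 (SE), 0.86 without CFA replicate 3 and 4.35 without saline replicate 1. It was 1.58 with a replicate block and 1.17 by limma-voom. Gbp2, which in mouse macrophages is recruited to parasite vacuoles and bacteria, went the other way. It had 2, 0 and 3 counts in CFA and 18, 0 and 0 counts in saline libraries, so its saline level came from replicate 1 alone.

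Among the IRGM regulators, Irgm1 was at 13.6, 10.7 and 22.4 CPM in CFA libraries and 15.4, 5.01 and 6.18 CPM in saline libraries. Saline replicate 1 was above CFA replicates 1 and 2, so the groups overlapped. The log2 fold change was 0.81 ± 0.42 (SE), 0.45 without CFA replicate 3, 1.47 without saline replicate 1 and 0.52 without saline replicate 2. Igtp was at 5.99, 9.08 and 19.1 CPM in CFA libraries and 7.61, 8.07 and 2.84 CPM in saline libraries. CFA replicate 1 was below saline replicates 1 and 2. The log2 fold change of Igtp was 0.88 ± 0.48 (SE), 0.29 without CFA replicate 3 and 0.54 without saline replicate 3.

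Irgm2, the neighbour of Igtp with the nearly identical promoter stretch, had 26, 6 and 49 counts in CFA libraries and 0 in each of the 3 saline libraries. Igtp in the same saline libraries had 85, 87 and 28 counts, and both genes were highest in CFA replicate 3, at 3.50 (Irgm2) and 2.54 (Igtp) times the mean of the other CFA libraries. Pooled over the group, Irgm2 was at 2.40 CPM in CFA. By counting error alone, that is at least 25.5-fold higher than the 3 counts that 0 counts over the saline group allow (0.0943 CPM). The spread between libraries is not in this bound, and CFA replicate 2 alone was at 0.529 CPM. CFA replicate 3 held 49 of the 81 counts, and without it the bound was 14.5-fold, a setting chosen after seeing the data. Genes with no counts in saline and counts in 2 or more CFA libraries made up 1.60% of those with any count, and Irgm2 and Ifi47 were among them.

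Among the effector IRGs, Ifi47 had 0, 5 and 13 counts in CFA libraries and 0 in each saline library. On the same floor over the saline group, it was at least 5.66-fold higher in CFA, and at least 2.27-fold without CFA replicate 3, which held 13 of its 18 counts. These bounds, too, cover counting error alone and not the spread between libraries. Iigp1, which loads onto parasite vacuoles and disrupts them, had 10, 0 and 25 counts in CFA libraries and 16, 0 and 0 counts in saline libraries. Its groups overlapped, and 1 of 3 saline libraries held all of its saline counts. Saline replicate 1 thus held 18 of 18 saline counts of Gbp2, 16 of 16 of Iigp1 and 17 of 22 of Gbp3, along with the highest saline level of Irgm1. Without CFA replicate 3, 6 of the 8 genes had the higher mean in CFA, and without saline replicate 1 all 8 did.

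Over the 4 genes that passed the filter the median log2 fold change was 1.30, beside -0.0011 over all 13560 genes tested. It was 0.63 without CFA replicate 3. All 4 were positive, as were 49.8% of all genes tested, and 0 of the 4 were called.

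**Figure D3:**
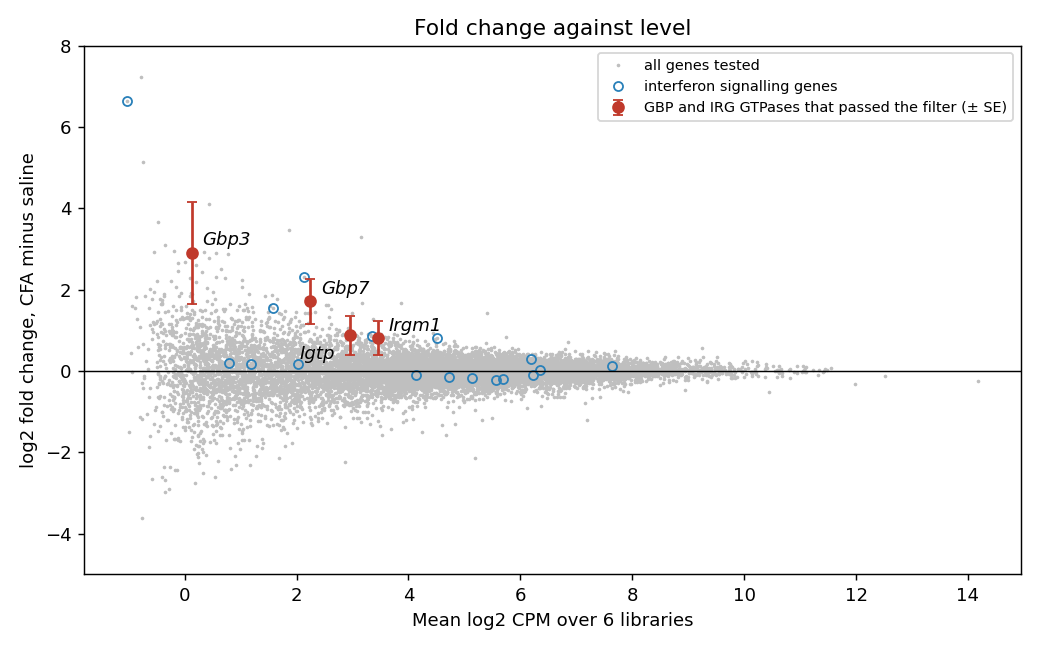
log2 fold change (CFA minus saline) against mean log2 CPM for every gene tested (grey), the 17 interferon signalling genes (open blue circles) and the 4 GTPases that passed the filter (red, ± SE). Gbp3, at 2.91, and Gbp7, at 1.71, lie above Igtp, at 0.88, and Irgm1, at 0.81.

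Most other genes of both families were at or near 0, with Irgq and Gm4951 as the exceptions. Shared sequence was searched only for the 8 GTPases, so low counts of these other genes need not mean few transcripts. The table held 18 further GBP and IRG genes, of which 11 had any count and 2 passed the filter. Among GBPs, 5 of 8 had no count in any library: Gbp2b, Gbp4, Gbp8, Gbp9 and Gbp10. Gbp5, which takes part in inflammasome activation, had 0, 7 and 1 counts in CFA libraries and 0, 0 and 3 in saline libraries. Gbp6 had 5 counts in CFA replicate 3 alone, and Gbp11 had 10, 0 and 5 counts in CFA libraries and 0 in each saline library. Thus Gbp2, Gbp3 and Gbp7 of the chromosome 3 cluster carried nearly all GBP counts.

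Among IRGs, Tgtp1 and Tgtp2, effector IRGs also called Irgb6, had 0 counts in each CFA library, and 2 and 1 counts over the saline libraries. Gm12250 had 13 counts in CFA replicate 1 alone. F830016B08Rik had 6, 0 and 13 counts in CFA libraries and 0 in each saline library. 9930111J21Rik1 had 2 counts in saline replicate 3, and Gm5431 and 9930111J21Rik2 had none. Gm4951, which lies near Iigp1 on chromosome 18 and shares part of its sequence, was at 1.50, 2.29 and 4.61 CPM in CFA libraries and 1.97, 0 and 1.32 CPM in saline libraries. Its log2 fold change was 1.34 ± 0.96 (SE), and the groups overlapped. It too was highest in CFA replicate 3.

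Irgq and Irgc1 are IRG relatives known outside interferon induction. Irgq, a divergent IRG-like protein that acts in autophagy in human cells, averaged 71.6 ± 10.6 CPM in CFA libraries and 76.0 ± 16.9 CPM in saline ones (SD, n = 3 each), with a log2 fold change of -0.09 ± 0.21 (SE). Irgc1, the testis form, had 3, 7 and 0 counts in CFA libraries and 0, 1 and 3 in saline libraries. Of the other large GTPases, the atlastins Atl1, Atl2 and Atl3, constitutive relatives of the GBPs that fuse endoplasmic reticulum tubules, had log2 fold changes of -0.02, 0.01 and -0.19. Mx2, an interferon-induced antiviral GTPase, was at 2.25, 6.61 and 5.86 CPM in CFA libraries and 1.16, 0 and 0.811 CPM in saline libraries, without overlap. Its log2 fold change was 2.88 ± 0.90 (SE), with an unadjusted p of 0.00636 by edgeR and an adjusted p of 1. Mx1 averaged 2.76 ± 2.60 CPM in CFA libraries and 0.978 ± 1.07 CPM in saline ones. The giant GTPase Gvin1 had no count in any library.

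**Figure D4:**
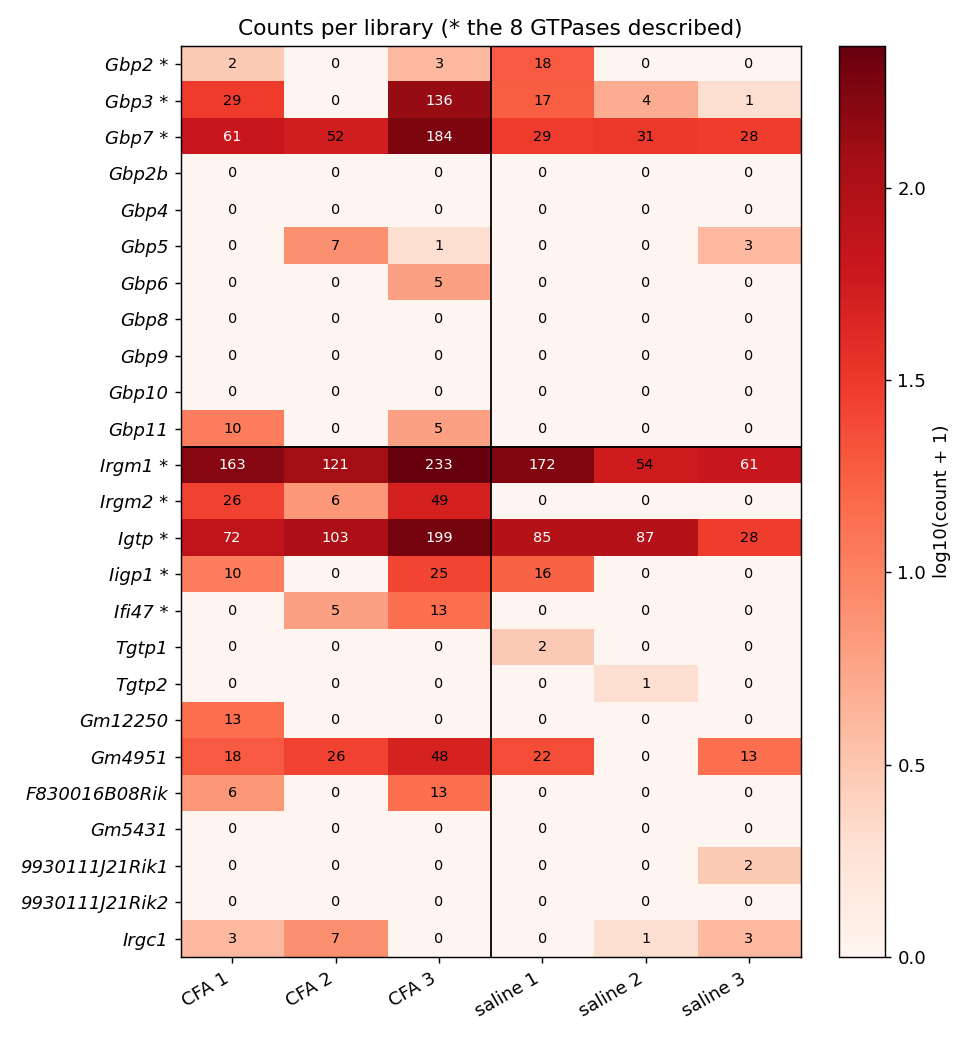
Raw counts of 25 GBP and IRG genes (rows, GBPs above the line and IRGs below it) in the 3 CFA libraries (left) and the 3 saline libraries (right); colour is log10(count + 1), asterisks mark the 8 GTPases described, and the constitutive Irgq (613 to 997 counts) is left out. Irgm1, Igtp and Gbp7 are the only genes with counts in every library.

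Interferon ligand transcripts were hardly detected. Of 7 ligand genes, 4 had any count, with at most 3 counts in a library, all in saline libraries: 1 count of Ifng, 2 of Ifnb1, 3 of Ifne and 1 of Ifnl3. Of 17 genes of interferon signalling (receptors, kinases, transcription factors and inhibitors), 17 were tested. Of these, 11 had a positive and 6 a negative log2 fold change, 0 were called, and the median was 0.17, beside -0.0011 over all genes. At an unadjusted p under 0.05 there were 4, all higher in CFA (Irf1, Irf9, Irf7 and Nlrc5), where 1.35% of all genes tested were. This signal was known from earlier results of these data.

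Irf7, a transcription factor that amplifies the interferon response, was at 7.57, 7.14 and 17.7 CPM in CFA libraries and 3.04, 0.556 and 2.84 CPM in saline libraries. The groups did not overlap, and CFA replicate 3 was again the highest. Its log2 fold change was 2.33 ± 0.59 (SE), with an unadjusted p of 0.00137 by edgeR and an adjusted p of 0.952. Irf1 averaged 13.6 ± 1.89 CPM in CFA libraries and 7.46 ± 0.339 CPM in saline ones, also without overlap, and its CFA libraries lay close together. Nlrc5, an activator of MHC class I genes, had 11, 15 and 12 counts in CFA libraries and 0 in each saline library. The signalling genes of highest level had small differences: Jak1 (0.12 ± 0.18), Stat2 (0.30 ± 0.32) and the phosphatase Ptpn2 (0.02 ± 0.23), as log2 fold change ± SE.

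Of the genes that act with these GTPases on membranes, the conjugation genes were all tested and most inflammasome genes were too low to be. IRGM and GBP targeting uses the ATG8 conjugation machinery, of which 10 of 10 genes were tested, 6 with a positive and 4 with a negative log2 fold change and a median of 0.054. Gabarapl1, an ATG8 protein, averaged 596 ± 17.3 CPM in CFA libraries and 547 ± 85.0 CPM in saline ones (SD, n = 3 each). Atg3, the conjugating enzyme, averaged 57.3 ± 9.66 and 65.7 ± 10.1 CPM. Of 10 inflammasome, ubiquitin and adaptor genes 4 were tested, with 2 positive, 2 negative and a median of -0.012. Trim21, an antibody-binding ubiquitin ligase, had the largest log2 fold change of the 4, at 0.61 ± 0.56 (SE). The ubiquitin-binding adaptor Sqstm1 averaged 689 ± 53.6 CPM in CFA libraries and 652 ± 128 CPM in saline ones. Casp4, the caspase that GBPs help to activate, had no count in any library.

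Transcripts of other cell types were present too. All 14 microglia markers had counts, and their summed level was 133, 167 and 107 CPM in CFA libraries and 125, 82.2 and 92.1 CPM in saline libraries. The microglia sum was highest in CFA replicate 2 and lowest of the CFA libraries in replicate 3, where the GTPases were highest. Of these markers, 13 had a positive log2 fold change, as did 49.8% of all genes tested. The median was 0.49, beside -0.0011 over all genes tested. At an unadjusted p under 0.05 by edgeR, 1.35% of all genes tested were higher in CFA. Among the microglia markers there was 1 at that level, Csf1r, higher in CFA with a log2 fold change of 1.62 ± 0.57 (SE). The 12 astrocyte markers summed to 599, 731 and 520 CPM in CFA libraries and 515, 600 and 564 CPM in saline libraries. Of them, 7 had a positive and 5 a negative log2 fold change. At an unadjusted p under 0.05 by edgeR there were 3, all higher in CFA (Aldoc, Fgfr3 and Slc1a3), beside 1.35% of all genes. The 10 endothelial and pericyte markers, with Cdh5 at 0 in every library, summed to 3.75 to 6.91 CPM in CFA libraries and 4.45 to 12.3 CPM in saline ones. The sum was highest in saline replicate 1, where the single gene Vtn was at 7.25 CPM. The 6 border macrophage markers summed to 0.769 to 1.59 CPM in CFA libraries and 0 to 1.67 CPM in saline ones. Of 8 T and NK cell markers, Cd3e, Cd3d, Gzmb and Ncr1 were at 0 in every library. The summed level was 0.265 to 4.49 CPM in CFA libraries and 0.811 to 8.90 CPM in saline ones. It was mostly Cd4, except in CFA replicate 2, where Cd4 had no count and the sum came from Cd3g. The 7 oligodendrocyte markers summed to 301 to 465 CPM in CFA libraries and 338 to 415 CPM in saline ones. The part of these cells in the GTPase levels was not tested.

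**Figure D5:**
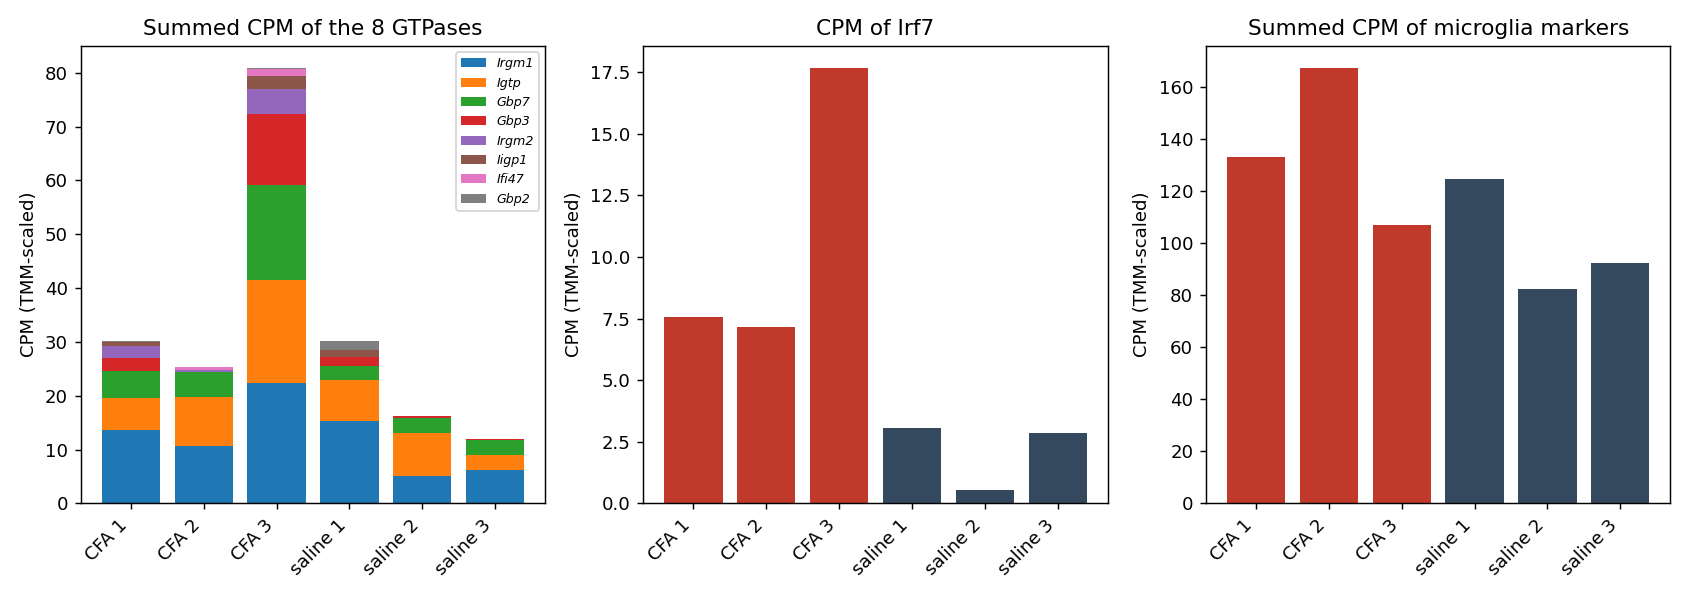
Left, CPM of the 8 GTPases stacked for each library; middle, CPM of Irf7; right, summed CPM of 14 microglia markers, with CFA libraries red and saline libraries blue in the last 2 panels. GTPases and Irf7 peak in CFA replicate 3 (80.9 and 17.7 CPM), and microglia markers in CFA replicate 2 (167 CPM).

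The genes whose pattern over the 6 libraries was most like that of the 4 filtered GTPases were sought among the 11370 genes whose mean log2 CPM reached 2. The measure was Pearson's r between a gene's log2 CPM and the mean z-score of the 4, given as a description. The highest was H2-D1, an MHC class I gene, with r = 0.98 over 6 libraries. It was at 41.9, 37.5 and 57.6 CPM in CFA libraries and 37.0, 30.2 and 29.9 CPM in saline libraries, and part of its exon sequence overlaps H2-L on the same strand. The next 8, Armc6, Urod, Cdh22, Epor, Gpc1, Ccdc174, Sgpp2 and Slc39a7, had r between 0.96 and 0.97. The tenth row, whose symbol had been turned into a date, matched Sept5 by position, with r = 0.95, and its exons overlap those of Gp1bb. All 10 share the libraries and their depth with the GTPases, and the list was ranked out of many candidates over few libraries.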

How the data were processed

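The deposited values were raw counts of 6 libraries, 1 row per gene, with exon intervals and exon length, per the file headers, and every library column was used. Per the labels' protocols, RNA of sorted nuclei was amplified with the Smart-seq V4 kit (9 PCR cycles) and 300 ng of cDNA entered Nextera XT preparation, and neither kit marks strand. Per the submitters' processing notes, the authors used build mm10, featureCounts 2.0.1 and edgeR 3.32.1, along with HISAT2 2.2.1, SAMtools 1.13 and Trim Galore. How strand and multi-mapping reads were handled is not given in the sources used here.

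Counts were tested with edgeR 4.0.16 (R 4.3.3), using the quasi-likelihood test, TMM scaling, filterByExpr defaults, treatment as the only term and Benjamini-Hochberg adjustment over all genes tested. Standard errors came from the F statistic. log2 CPM used a prior count of 2. TPM was computed from counts and exon length. Motifs and shared 50-base stretches were searched in RefSeq promoters and GENCODE M21 transcripts. No 2 libraries were copies (the lowest chi-square per degree of freedom of any pair was 16.4). The highest were 45.9 and 43.3, for saline replicate 3 against saline replicates 1 and 2, beside 19.7 between saline replicates 1 and 2. Alternatives were RLE and library-size scaling, other filters, DESeq2 1.42.0, limma-voom (limma 3.58.1), a replicate block and leaving out each library.

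One item of the lists is not reported here. The members and lists were chosen with earlier results of these data known. Named were all GTPases of both families, from each other list the 3 genes of highest CPM and the 3 of smallest p where a result turned on them, and the 10 genes of most similar pattern. With libraries not stated to be separate animals, p-values measure only the spread between these libraries.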

Additional observations from a re-analysis of the deposited data

How the results depend on the processing

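The scaling, filter, tool and block left all 4 tested GTPases with positive log2 fold changes wherever they passed the filter, between 0.78 and 2.94 over the 4. Gbp3 moved most, to 1.58 with the replicate block and 1.17 by limma-voom. Leaving out single libraries gave a median over the tested GTPases of 0.63 (without CFA replicate 3) to 1.87 (without CFA replicate 2), and 6 to 8 of the 8 genes higher in CFA. The count of genes called over the whole table was 0 in the main edgeR fit. Without a low-count filter it was 9, with the replicate block 6 and with DESeq2 5. It was 0 to 5 when a library was left out (5 without saline replicate 3). The replicate numbers did not pair the libraries: deviations from the group means correlated at -0.079, 0.025 and -0.069 for numbers 1, 2 and 3, and the block gave a median of 1.17. Counts of 0 to 25 per library for Gbp2, Iigp1 and Ifi47 limit any statement about them, and for Irgm2 the saline level is known only as a limit.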

Other observations

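The ISRE core found in 6 of the GTPase promoters, and the GAS core found in 3, were also present in some relatives that had few or no counts. In the 250 bases before the start site, Tgtp1 and Tgtp2 each held an ISRE core and a GAS core. The ISRE core began 11 bases after the beginning of the GAS core, the same spacing as in Igtp and Irgm2. Tgtp1 and Tgtp2 had 2 and 1 counts over all 6 libraries. Sequence shared with other genes was not searched for the relatives, and the handling of multi-mapping reads is not given. Low counts of the relatives can therefore not be read as few transcripts. Gbp2b held an ISRE core and had no count, and Gbp5 and Gm12250 held both cores with 11 and 13 counts in all. Neither core was in the window of Gm5431, 9930111J21Rik1 and 9930111J21Rik2, which had few or no counts, or of the more abundant Irgq. The remaining relatives have no promoter result here, among them Gm4951 and F830016B08Rik. In this comparison of sequence and level, Ifi47 had neither core and 18 counts, all in CFA libraries.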
